A study of Mus musculus with 11 samples.

Results

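The genes described here are 52 mouse genes that cells use to divide: the cyclins and kinases that start mitosis, the spindle motors, the kinetochore, the spindle checkpoint, the condensins and the machinery of cytokinesis. They were chosen by name and known function, with earlier results of these data known, and all 52 were found among the 12647 genes of the deposited count table. All 52 passed the filter on low counts, and 12625 genes were tested. They were placed by their known function in 7 role groups of 4 to 11 genes.

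RNA was sequenced from LSKs, the lineage-negative, Sca1-positive, Kit-positive fraction of mouse bone marrow that holds the hematopoietic stem cells and their early progeny. There were 3 libraries for each of 3 genotypes on the C57BL/6 background. The p53+/+ mice, labelled wild-type, carried in the study's wording the humanized p53 knock-in (HUPKI) allele, which encodes a p53 protein made mostly of human sequence. The p53R248W/+ mice were heterozygous for the R248W mutation in that allele, expressed from the mouse Trp53 promoter, and the p53-/- mice lacked p53 by their label. The origin of the p53-/- line and the position of its deletion are not given in the sources used here. The mice were young and no treatment is given for these libraries, so the genotypes are compared at steady state. Library names of p53+/+ and p53R248W/+ share a pattern that those of p53-/- do not. The sources used here do not say whether all were prepared together. A difference of p53-/- from the others therefore cannot be told apart from a difference in preparation. Neither the labels nor the methods say whether the libraries of a genotype came from separate animals, so the p-values measure the spread between libraries, which may be technical.

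As background, mitotic genes are silent in resting cells and are transcribed together late in the cell cycle. Their promoters are known for a CHR element, which recruits the MuvB core: with p107, p130 and E2F4 it forms the repressive DREAM complex, and with B-MYB and FOXM1 it forms an activator. p53 induces p21, encoded by Cdkn1a, which restrains the cyclin-dependent kinases and thereby keeps DREAM in place. Most hematopoietic stem cells in the marrow rest outside the cell cycle, while multipotent progenitors divide more often, so the level of these transcripts in bulk LSKs depends both on how many cells are dividing and on how much RNA each of them holds, and those cannot be told apart in these libraries.

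The promoters are shown because the genes are known as a co-regulated set and because 12 of them were lower in p53-/- than in p53+/+ LSKs. RefSeq promoters (build GRCm38.p6, from 250 bases before to 50 bases after the start of transcription) matched 43 of the 52 genes, 40 by a single promoter and 3 by more, for 46 promoters in all. Aurkb, Ccna2, Cdc25c, Foxm1, Incenp, Kif20a, Smc4, Spc24 and Tpx2 were not matched. On both strands, the CHR element was searched as TTTGAA or either of its known variants, TTTAAA and the symmetrical TTCGAA, the CCAAT box by its name, and the E2F site as TTTCGCGC, TTTGGCGC, TTTCCCGC or TTTGCCGC. The 6 promoters printed run 5′ to 3′ in the direction of the gene, and capitals mark matches to the CHR element and the CCAAT box on either strand. Positions count from 1 at the first base transcribed and are negative before it. Cenpf (chr1:189688037-189688336, minus strand), Kif4 (chrX:100625815-100626114, plus strand) and Top2a (chr11:99024140-99024439, minus strand) belong to genes that were lower in p53-/- LSKs. Ccnb2 (chr9:70421505-70421804, minus strand) and Cdc20 (chr4:118437294-118437593, minus strand) were not past the threshold, and Pttg1 (chr11:43425932-43426231, minus strand) was not lower.
Cenpf: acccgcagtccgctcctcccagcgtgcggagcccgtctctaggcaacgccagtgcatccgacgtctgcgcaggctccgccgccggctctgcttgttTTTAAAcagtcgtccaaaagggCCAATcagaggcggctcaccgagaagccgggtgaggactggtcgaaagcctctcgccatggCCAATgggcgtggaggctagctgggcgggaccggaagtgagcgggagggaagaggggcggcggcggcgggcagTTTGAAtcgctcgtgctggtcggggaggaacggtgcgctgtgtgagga
Kif4: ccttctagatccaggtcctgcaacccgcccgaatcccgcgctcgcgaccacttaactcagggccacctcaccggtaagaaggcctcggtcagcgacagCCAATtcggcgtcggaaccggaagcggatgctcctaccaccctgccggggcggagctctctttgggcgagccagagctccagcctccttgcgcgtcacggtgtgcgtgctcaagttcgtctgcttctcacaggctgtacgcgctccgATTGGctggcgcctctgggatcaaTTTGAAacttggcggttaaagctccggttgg
Top2a: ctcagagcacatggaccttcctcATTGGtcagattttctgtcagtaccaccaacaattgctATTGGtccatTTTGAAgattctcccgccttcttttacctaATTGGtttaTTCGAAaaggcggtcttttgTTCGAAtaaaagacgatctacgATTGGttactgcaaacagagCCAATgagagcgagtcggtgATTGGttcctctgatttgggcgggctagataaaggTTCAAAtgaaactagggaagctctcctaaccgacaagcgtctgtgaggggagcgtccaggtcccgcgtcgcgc
Ccnb2: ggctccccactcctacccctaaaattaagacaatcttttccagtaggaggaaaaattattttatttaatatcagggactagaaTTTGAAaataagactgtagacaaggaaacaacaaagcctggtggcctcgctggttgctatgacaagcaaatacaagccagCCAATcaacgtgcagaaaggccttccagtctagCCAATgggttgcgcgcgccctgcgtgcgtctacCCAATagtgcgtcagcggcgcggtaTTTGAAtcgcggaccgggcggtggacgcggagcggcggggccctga
Cdc20: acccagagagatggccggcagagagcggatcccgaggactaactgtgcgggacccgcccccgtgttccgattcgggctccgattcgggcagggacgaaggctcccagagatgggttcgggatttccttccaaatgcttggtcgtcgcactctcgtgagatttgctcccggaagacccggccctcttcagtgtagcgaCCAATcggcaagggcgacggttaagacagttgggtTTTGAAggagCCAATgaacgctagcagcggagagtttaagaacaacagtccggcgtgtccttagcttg
Pttg1: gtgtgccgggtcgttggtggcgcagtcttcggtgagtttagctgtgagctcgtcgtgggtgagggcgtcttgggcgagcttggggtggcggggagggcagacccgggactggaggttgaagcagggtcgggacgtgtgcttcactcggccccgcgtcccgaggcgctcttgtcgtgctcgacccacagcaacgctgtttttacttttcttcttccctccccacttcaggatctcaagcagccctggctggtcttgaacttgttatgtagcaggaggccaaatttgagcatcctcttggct

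A CHR element was present in 39 of the 46 promoters of these genes (84.8%), beside 28.8% of the 32851 promoters of the same length in the whole table. Of those 39 promoters, 34 held a CHR match that began within 50 bases of the start of transcription, as in Cenpf (position 3), Ccnb2 (position 5), Cdc20 (position -18) and Kif4 (position 20). A CCAAT box was present in 35 promoters (76.1%), beside 37.4% of all promoters, and CHR and CCAAT stood together in 33 (71.7%), beside 11.3%. Top2a held 4 CHR and 6 CCAAT matches and Ube2c held 1 and 6. The E2F site was present in 4 promoters (8.7%), beside 2.26% of all promoters. In 2 cases matches of these motifs overlapped. Among genes with a promoter, all 10 that were called lower in p53-/- LSKs and 26 of the 33 that were not called held a CHR element, and a CCAAT box was present in 7 of 10 and 25 of 33. Nek2 and Cks2 held CCAAT boxes without a CHR element, and no match of any of the motifs was in the Pttg1, Mad2l1, Nuf2, Nusap1 or Ncaph promoters. The promoters of Aurka, Cdc25b, Ect2, Kif2c and Ncapd2, all with a CHR element, lay inside the annotated gene. The Pttg1 promoter used also lay inside its annotated gene (chr11:43420244-43427463), so the region before its annotated 5′ end was not searched. Bub3, the other gene with a log2 fold change above 0 in p53-/-, held 1 CHR and 2 CCAAT matches in each of its promoters. A match is a description of the letters and was not tested as a binding site.

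The genotype labels were checked on Trp53 and Cdkn1a. Trp53 levels in CPM (counts divided by the size of the library in megareads, after scaling by the normalization factors of edgeR) were 125, 207 and 376 in the 3 p53+/+ libraries, 219, 240 and 235 in p53R248W/+ and 129, 127 and 112 in p53-/-. The p53-/- libraries overlapped the lowest p53+/+ library, and because the deleted part is not known and the other genotypes carry human p53 sequence, the Trp53 count does not check the label. Cdkn1a, the p21 gene and a direct p53 target, was at 67.0, 44.0 and 43.6 CPM in p53+/+, 52.1, 37.7 and 35.7 in p53R248W/+ and 17.8, 8.27 and 10.9 in p53-/-. No p53-/- library overlapped the others, and Cdkn1a was 4.18-fold lower in p53-/- than in p53+/+ (log2 fold change -2.07 ± 0.30, SE, edgeR quasi-likelihood test, Benjamini-Hochberg adjusted p = 0.00914). Between 18021375 and 29750702 reads per library were assigned to genes, the highest in p53R248W/+ replicate 1. Kit and Ly6a, which encode the antigens of the LSK gate, were expressed in every library (mean log2 CPM 8.11 to 8.88). Y-linked transcripts (Ddx3y, Kdm5d, Eif2s3y, Uty) were found in p53+/+ replicate 2 and in p53R248W/+ replicates 2 and 3, and were at or near 0 in the other 6 libraries, including all of p53-/-. Xist was also detected in p53+/+ replicate 2 (65.0 CPM) and p53R248W/+ replicate 2 (149 CPM), so those libraries held both.

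Of the 52 genes, 12 were lower in p53-/- than in p53+/+ at an adjusted p below 0.05 and none was higher, where 2.25% of all genes tested were called lower. The 12 genes were Cenpe, Cenpf, Kif11, Kif15, Kif20a, Kif20b, Kif4, Anln, Top2a, Smc2, Smc4 and Mki67, which encode motors and structural proteins of the spindle, kinetochore, midzone and chromosomes. The log2 fold change was below 0 for 50 of the 52 genes, with a median of -0.82 (1.76-fold lower) beside -0.00 over all genes tested. All 3 p53-/- libraries lay below all 3 p53+/+ libraries for 35 of the 52 genes, where 16% of all genes did so. At an unadjusted p below 0.05, 38 genes were lower and none was higher.

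By contrast, none of the 52 genes was called in p53R248W/+ against p53+/+ LSKs, where 0.00792% of all genes (1 gene) were called in either direction, and none passed an unadjusted p of 0.05. By limma-voom and by DESeq2 the count was also 0. The median log2 fold change was 0.08, beside 0.01 over all genes. No gene had all p53R248W/+ libraries below the p53+/+ libraries, where 2.38% of all genes did, and 1 gene, Ndc80, had all of them above, where 2.66% did. In p53R248W/+ against p53-/- LSKs, 15 genes were called and all were higher in p53R248W/+, where 2.34% of all genes were called higher. These were the 12 genes above and Ndc80, Hmmr and Kif2c. For 33 genes every p53R248W/+ library lay above every p53-/- library, where 12.1% of all genes did so, and the median log2 fold change was 0.86. Each pair of these comparisons shares the 3 libraries of 1 genotype, so they are not independent.

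**Figure D1:**
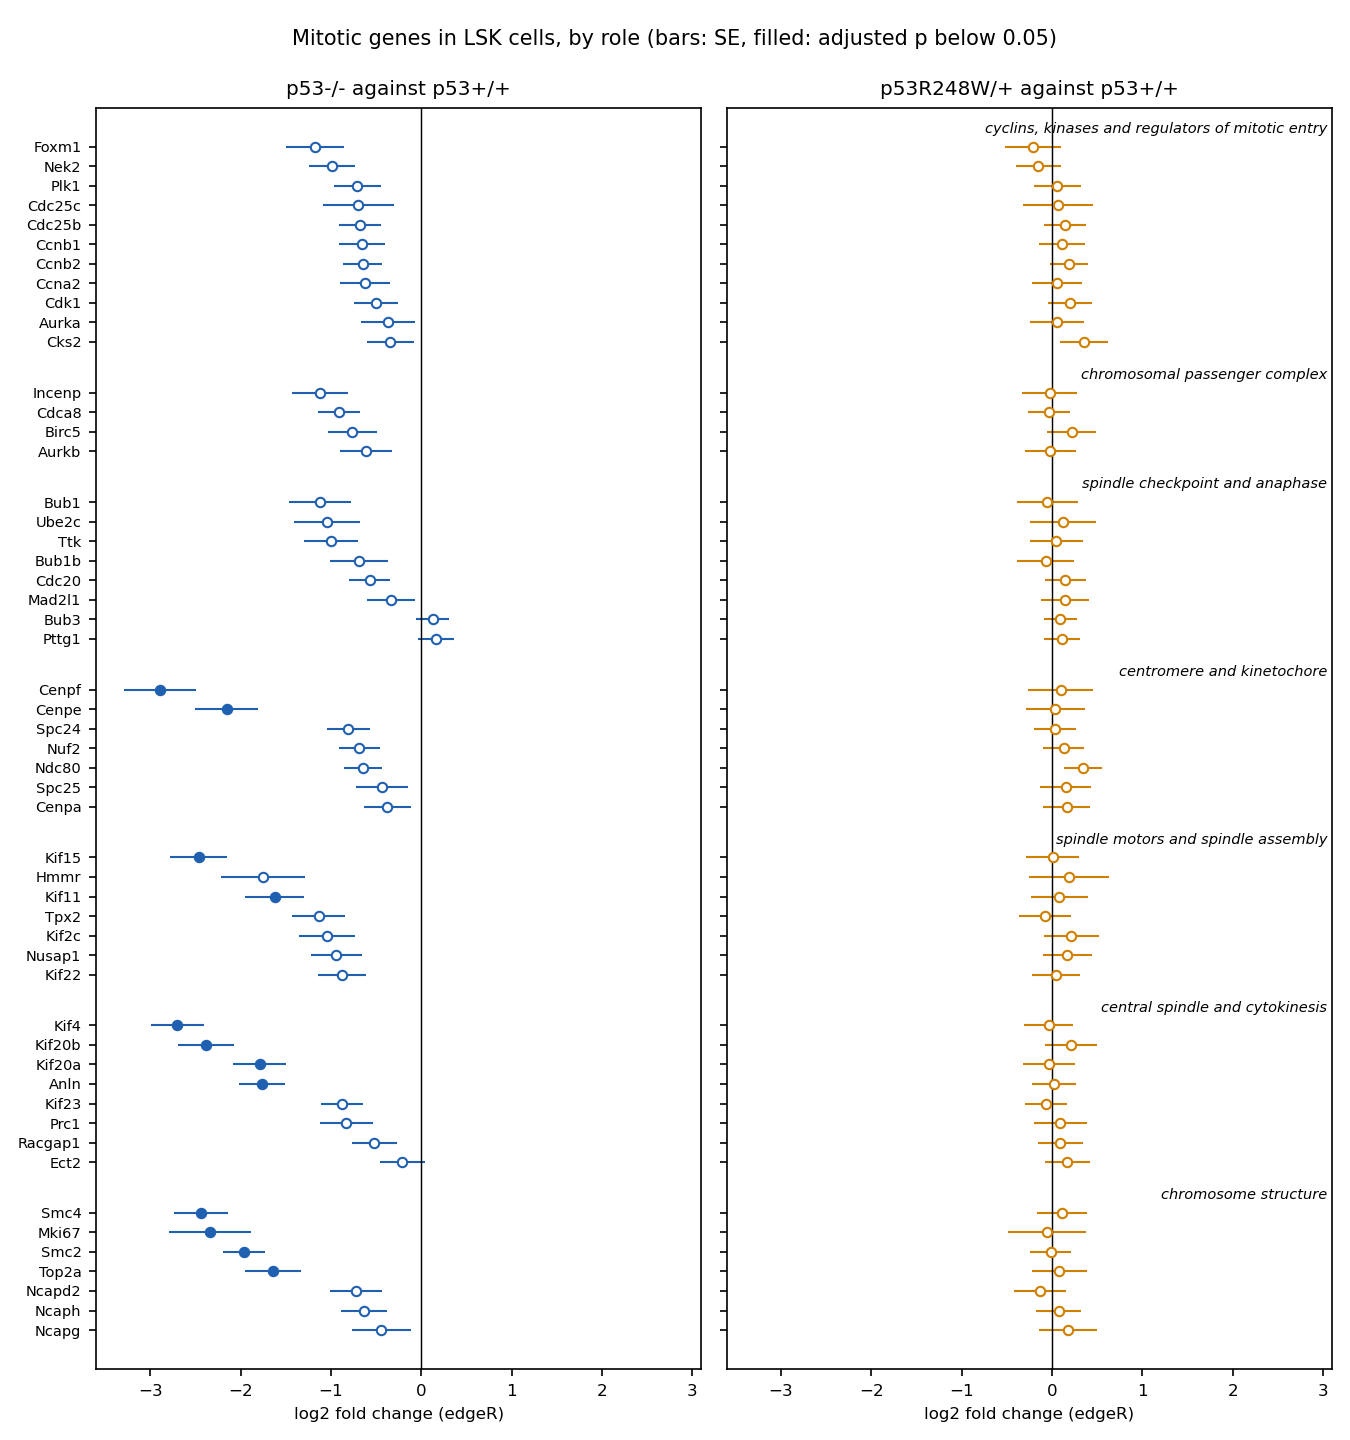
Log2 fold change (x axis, edgeR) of the 52 genes (y axis, grouped by role) in p53-/- and in p53R248W/+ against p53+/+ LSKs, with bars for the SE and filled points for an adjusted p below 0.05. On the left 50 of 52 points lie below 0 and 12 are filled, and on the right the points lie between -0.21 and 0.36 and none is filled.

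In the group of cyclins, kinases and regulators of mitotic entry, all 11 genes had a log2 fold change below 0 in p53-/- against p53+/+, from -1.18 to -0.34, and none passed the threshold. Foxm1, a transcription factor that activates mitotic genes, was at 37, 55.0 and 48.8 CPM in p53+/+, 22.6, 52.2 and 47.1 in p53R248W/+ and 27.8, 14.9 and 19.6 in p53-/-. Every p53-/- library was below every p53+/+ library, with p53R248W/+ replicate 1 inside the p53-/- range. Its log2 fold change in p53-/- was -1.18 ± 0.32 (SE, adjusted p = 0.0607). Nek2, a centrosomal kinase that helps to separate the spindle poles, was at 46.0, 60.0 and 59.7 CPM in p53+/+, 37.3, 56.2 and 55.6 in p53R248W/+ and 38.4, 21.4 and 23.9 in p53-/-, and the p53-/- libraries again lay below those of p53+/+ (-0.99 ± 0.25, SE, adjusted p = 0.0535). The cyclin-dependent kinase Cdk1 and the B-type cyclins Ccnb1 and Ccnb2 had log2 fold changes of -0.50, -0.65 and -0.65, with adjusted p from 0.0983 to 0.241. Ccnb2 was at 119, 119 and 145 CPM in p53+/+, 168, 132 and 137 in p53R248W/+ and 108, 72.6 and 63.5 in p53-/-, without overlap between p53-/- and the others. Cks2, a small subunit that binds the kinase, was at 94.6, 69.3 and 90.6 CPM in p53+/+, 152, 87.1 and 86.8 in p53R248W/+ and 79.7, 74.9 and 46.4 in p53-/-, so p53R248W/+ replicate 1 was the highest library and p53-/- overlapped p53+/+. Against p53+/+, the p53R248W/+ log2 fold change of Cks2 was 0.36 ± 0.26 (SE, unadjusted p = 0.2) and that of Ccnb2 was 0.19 ± 0.21 (SE, unadjusted p = 0.395). The mitotic kinases Plk1 and Aurka had log2 fold changes of -0.71 and -0.37 in p53-/-, and the phosphatases Cdc25b and Cdc25c, which activate Cdk1, -0.68 and -0.70. Ccna2, the S and G2 phase cyclin, stood at -0.63, with p53-/- replicate 1 (171 CPM) inside the p53+/+ range.

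The 4 genes of the chromosomal passenger complex, which corrects the attachment of chromosomes to the spindle, had log2 fold changes from -1.12 to -0.61 in p53-/- and none passed the threshold. Cdca8, encoding borealin, was at 102, 110 and 134 CPM in p53+/+, 91.5, 123 and 125 in p53R248W/+ and 79.0, 63.4 and 42.2 in p53-/-. Its p53-/- libraries lay below all others and its adjusted p was just short of the threshold (-0.91 ± 0.23, SE, adjusted p = 0.0524). Incenp, the scaffold of the complex, was at 69.9, 98.3 and 97.5 CPM in p53+/+, 48.5, 105 and 108 in p53R248W/+ and 56.3, 34.6 and 31.2 in p53-/- (-1.12 ± 0.31, SE, adjusted p = 0.0635). Here p53R248W/+ replicate 1 lay within the p53-/- range. Birc5, which encodes survivin, and the kinase Aurkb had log2 fold changes of -0.76 and -0.61.

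Among the 8 genes of the spindle checkpoint and of anaphase, 6 had a log2 fold change below 0 and none passed the threshold. The checkpoint kinase Bub1 was at 49.5, 57.9 and 57.0 CPM in p53+/+, 44.5, 62.2 and 52.3 in p53R248W/+ and 43.6, 17.3 and 14.9 in p53-/-. The p53-/- libraries did not overlap those of the other genotypes, although replicate 1 lay within 1 CPM of the lowest p53R248W/+ library (-1.12 ± 0.34, SE, adjusted p = 0.0823). Ttk, the kinase known as MPS1, was at 29.3, 28.3 and 32.7 CPM in p53+/+, 27.7, 33.7 and 32.0 in p53R248W/+ and 22.7, 14.2 and 8.40 in p53-/-, also without overlap (-0.997 ± 0.30, SE, adjusted p = 0.0758). Ube2c and Cdc20, an E2 enzyme and an activator of the anaphase-promoting complex, had log2 fold changes of -1.04 and -0.57, and the checkpoint proteins Bub1b and Mad2l1 -0.69 and -0.34. Bub3 and Pttg1 stood apart from the list. Bub3, a checkpoint protein, was at 291, 271 and 287 CPM in p53+/+, 370, 273 and 262 in p53R248W/+ and 344, 322 and 259 in p53-/-, and its genotypes overlapped (0.12 ± 0.18, SE, adjusted p = 0.716). Pttg1, which encodes securin, the inhibitor of separase, was at 36.6, 29.6 and 39.9 CPM in p53+/+, 43.3, 37 and 34.5 in p53R248W/+ and 37.3, 48.0 and 33.6 in p53-/-, and its genotypes overlapped too (0.16 ± 0.20, SE, adjusted p = 0.658). Between p53R248W/+ and p53-/- both were near 0 (Bub3 -0.03, Pttg1 -0.05).

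The centromere and kinetochore group of 7 genes held 2 called genes, where 2.25% of all genes were called lower. All 7 had a log2 fold change below 0. Cenpf (chr1:189640606-189688107), a large kinetochore and nuclear matrix protein, was at 26.8, 43.0 and 47.4 CPM in p53+/+, 20.1, 50.2 and 55.1 in p53R248W/+ and 5.71, 6.6 and 3.44 in p53-/-. Its p53-/- libraries lay far below all others, and it was 7.43-fold lower than in p53+/+ (-2.89 ± 0.40, SE, adjusted p = 0.00671). Cenpe (chr3:135212563-135273540), the kinetochore motor, was at 25.3, 36.4 and 44.1 CPM in p53+/+, 18.9, 40.8 and 49.0 in p53R248W/+ and 6.80, 9.94 and 7.02 in p53-/-, 4.45-fold lower (-2.15 ± 0.35, SE, adjusted p = 0.0145). The Ndc80 complex, which holds the microtubule, had smaller differences: Ndc80, Nuf2, Spc24 and Spc25 had log2 fold changes of -0.65, -0.68, -0.81 and -0.44 and none was called. Ndc80 itself was at 35.4, 40.6 and 35.0 CPM in p53+/+, 43.1, 47.0 and 50.4 in p53R248W/+ and 25.8, 28.6 and 16.5 in p53-/-. Its 3 genotypes did not overlap, with p53R248W/+ highest and p53-/- lowest. The difference between p53R248W/+ and p53+/+ was 0.34 ± 0.21 (SE, unadjusted p = 0.134) and that between p53R248W/+ and p53-/- was 0.99 ± 0.21 (SE, adjusted p = 0.0324). Cenpa, the centromeric histone, stood at -0.37 in p53-/-.

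All 7 genes of the spindle motor and assembly group had every p53-/- library below every p53+/+ library, where 16% of all genes did so. Of the 7, 2 were called, where 2.25% of all genes were called lower. Kif15 (chr9:122951081-123018733), a motor that helps to keep the spindle bipolar, was at 23.4, 48.5 and 41.5 CPM in p53+/+, 27, 42.3 and 44.7 in p53R248W/+ and 8.81, 6.28 and 5.50 in p53-/-, 5.51-fold lower (-2.46 ± 0.32, SE, adjusted p = 0.00428). Kif11 (chr19:37376382-37421863), the motor Eg5 that pushes the spindle poles apart, was at 72.6, 116 and 90.4 CPM in p53+/+, 61.0, 123 and 111 in p53R248W/+ and 45.2, 22.8 and 22.9 in p53-/-, 3.07-fold lower (-1.62 ± 0.33, SE, adjusted p = 0.0272). In Kif11 p53-/- replicate 1 lay above the other two of its genotype and below every library of the others. Hmmr, a spindle assembly factor, had the second lowest log2 fold change of the group (-1.75) but did not pass the threshold (adjusted p = 0.0569), with p53-/- replicate 1 at 23.4 CPM and replicates 2 and 3 at 7.23 and 4.47. Tpx2, Kif2c, Nusap1 and Kif22, which nucleate, depolymerize or bundle microtubules or move chromosomes, had log2 fold changes from -1.13 to -0.88.

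The central spindle and cytokinesis group held 4 called genes of 8, where 2.25% of all genes were called lower. Kif4 (chrX:100626065-100727271), a chromosome-bound motor that also sets the length of the midzone, was at 27.9, 41.3 and 37.9 CPM in p53+/+, 21.9, 42.4 and 40.3 in p53R248W/+ and 6.04, 4.34 and 6.09 in p53-/-. It was 6.51-fold lower in p53-/- (-2.70 ± 0.29, SE, adjusted p = 0.00203), the smallest adjusted p of the 52 genes. Kif20b (chr19:34922335-34975750), a motor of the midbody, was at 23.9, 42.2 and 45.7 CPM in p53+/+, 27.5, 49.3 and 52.8 in p53R248W/+ and 6.58, 8.36 and 6.43 in p53-/-, 5.22-fold lower (-2.38 ± 0.31, SE, adjusted p = 0.00463). Kif20a, a midzone motor that carries the passenger complex, was at 47.0, 77.8 and 77.4 CPM in p53+/+, 47.4, 67.3 and 83.1 in p53R248W/+ and 26.9, 16.4 and 15.2 in p53-/-, 3.46-fold lower (-1.79 ± 0.29, SE, adjusted p = 0.0145). Anln (chr9:22331214-22389211), the actin-binding anillin of the contractile ring, was at 25.5, 33.2 and 29.3 CPM in p53+/+, 22.4, 34.5 and 32.9 in p53R248W/+ and 8.76, 10.8 and 6.48 in p53-/-, 3.38-fold lower (-1.76 ± 0.25, SE, adjusted p = 0.00914). For each of these 4 genes no p53-/- library overlapped either of the other genotypes. The other members did not pass the threshold: the midzone bundler Prc1 (-0.83), the centralspindlin subunits Kif23 (-0.88) and Racgap1 (-0.52), and Ect2 (-0.21), which activates RhoA and whose p53-/- replicate 1 (86.4 CPM) was the highest of the 9 libraries.

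Chromosome structure genes were split within the condensin complex. The condensin ATPases Smc2 (chr4:52439221-52488365) and Smc4 (chr3:69004738-69034623) were both called. Smc4 was at 95.9, 172 and 182 CPM in p53+/+, 105, 197 and 184 in p53R248W/+ and 28.6, 31.8 and 22.6 in p53-/-, 5.41-fold lower (-2.44 ± 0.30, SE, adjusted p = 0.0033), and Smc2 at 86.7, 124 and 139, 89.4, 132 and 124 and 30.6, 35.2 and 23.7 CPM in the same order, 3.90-fold lower (-1.96 ± 0.23, SE, adjusted p = 0.00312). All p53-/- libraries of both genes lay below all others. The condensin I subunits Ncapd2, Ncapg and Ncaph had log2 fold changes of -0.72, -0.44 and -0.63 and were not called. Top2a (chr11:98992947-99024199), the topoisomerase that untangles sister chromatids, was at 210, 323 and 289 CPM in p53+/+, 202, 350 and 318 in p53R248W/+ and 133, 73.1 and 58.4 in p53-/-, 3.12-fold lower (-1.64 ± 0.31, SE, adjusted p = 0.0234). Mki67 (chr7:135689784-135716450), encoding the Ki-67 protein of the surface of mitotic chromosomes that is widely used as a proliferation marker, was at 68.3, 108 and 121 CPM in p53+/+, 28.2, 124 and 134 in p53R248W/+ and 17.1, 19.7 and 22.0 in p53-/-. The p53-/- libraries were the lowest, and p53R248W/+ replicate 1 was far nearer to them than to its own replicates. Mki67 was 5.05-fold lower in p53-/- (-2.34 ± 0.46, SE, adjusted p = 0.0255). The study, which measured quiescence by staining of the Ki67 protein and DNA, describes LSKs and long-term HSCs that lack p53 as less quiescent. How that relates to the lower Mki67 transcript was not tested. Between p53R248W/+ and p53-/- the smallest p-values among the 52 genes were those of Kif4 (6.35-fold higher, adjusted p = 0.00207), Smc4 (5.85-fold, 0.00252) and Smc2 (3.87-fold, 0.00252), by the same edgeR test.

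**Figure D2:**
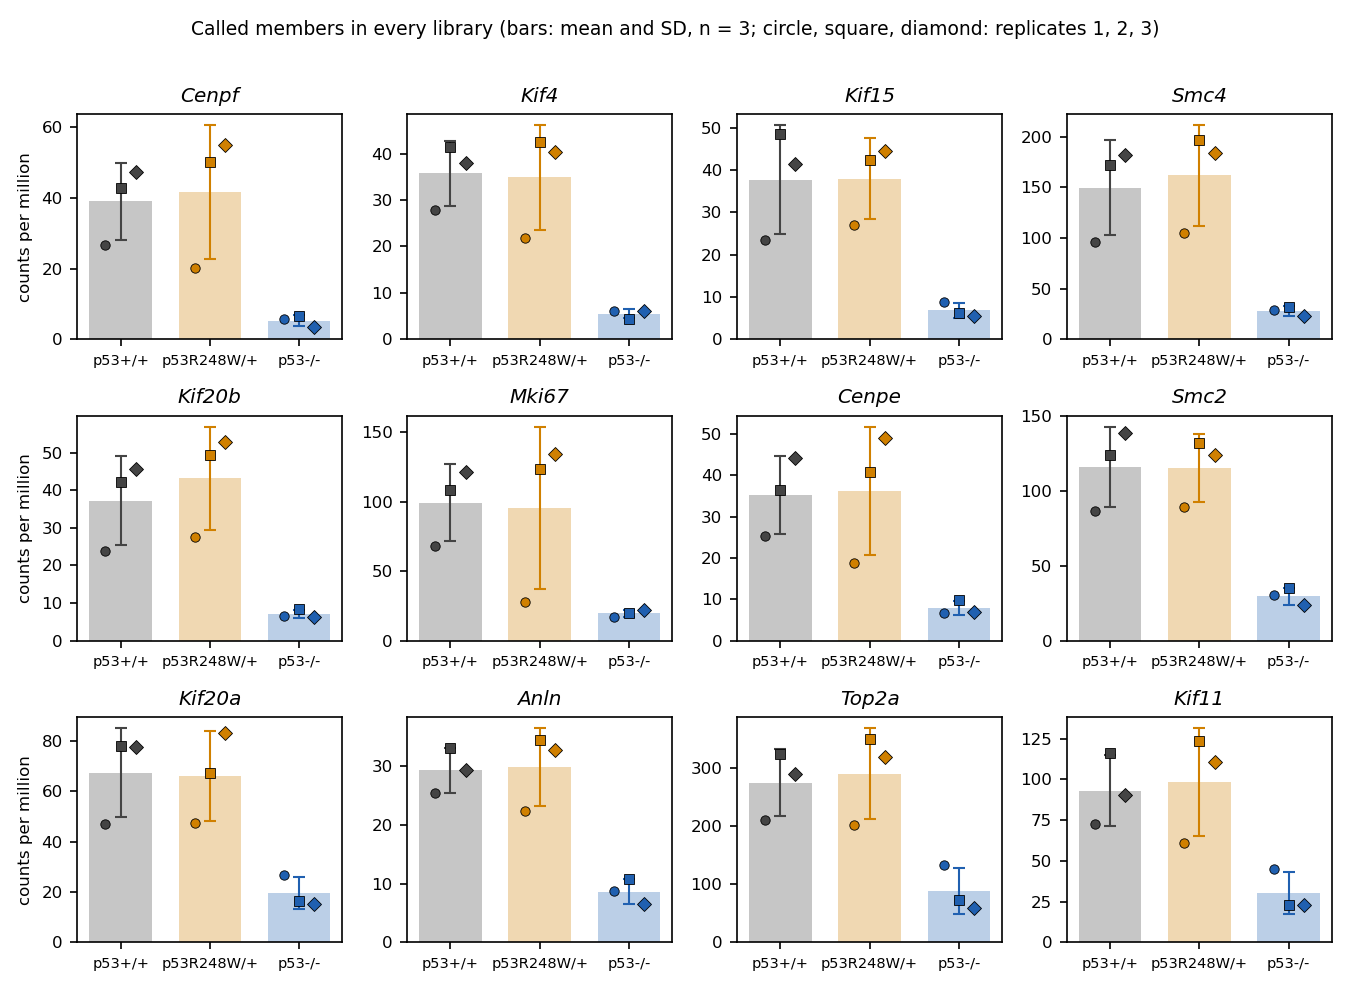
TMM-scaled CPM (y axis) of the 12 called genes in the 3 libraries of each genotype (x axis), with bars for the mean and SD. The p53-/- libraries lie below all others in every panel, and p53R248W/+ replicate 1 is the lowest of its genotype in each.

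The libraries of a genotype differed. In p53-/- replicate 1, 36 of the 52 genes were below all p53+/+ libraries, as against 48 in replicate 2 and 51 in replicate 3, where 33.3%, 36.8% and 29.1% of all genes tested were below. Replicate 1 was the highest p53-/- library for 40 genes. The 12 called genes were below p53+/+ in all 3 p53-/- libraries, and of the 40 other genes 24 were so in replicate 1. In p53R248W/+ replicate 1, 19 genes were below and 18 above the p53+/+ range, near the share of all genes in that library (34.8% below and 33.9% above), so over the 52 genes these counts are not particular to the list. Of the 12 genes called in p53-/-, 7 were below the p53+/+ range in that library, and of the 40 other genes 12 were. No gene was below that range in replicate 2 and 2 genes were in replicate 3, where 14.9% and 16.9% of all genes were. In p53+/+ replicate 1 was the lowest for 35 genes. The mean log2 CPM over the 52 genes was 6.08, 6.28 and 6.34 in p53+/+, 6.09, 6.39 and 6.39 in p53R248W/+, and 5.61, 5.08 and 4.70 in p53-/-.

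The count of called genes rested on single libraries. In p53-/- against p53+/+ it was 7 without p53+/+ replicate 3, without p53-/- replicate 2 or without p53-/- replicate 3, 8 without p53+/+ replicate 2, and 22 without p53R248W/+ replicate 1, which belongs to neither genotype compared but enters the filter, the normalization and the estimate of the spread. The count over all genes moved too, to 37, 39, 103, 46 and 1485 in the same order, from 442 with all libraries. For p53R248W/+ against p53-/- it was 8 without p53R248W/+ replicate 3 or without p53-/- replicate 2 or 3, 9 without p53R248W/+ replicate 2, 26 without p53R248W/+ replicate 1 and 30 without p53-/- replicate 1. When a covariate for Y-linked expression was added, 13 and 8 genes were called in these comparisons. Under every setting tried, all of these genes that were called in p53-/- against p53+/+ were lower, and Anln, Cenpf, Kif15, Kif20b, Kif4, Smc2 and Smc4 were called in each. The call of Cenpe, Kif11, Kif20a, Top2a and Mki67 was lost in 4 to 6 of the 20 alternatives.

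The genes that were called were among the longer ones. The 12 called genes were 3905 to 11122 bases long in the deposited table (median 5319), the other 40 were 694 to 4514 bases (median 2752.5), and the median of all genes was 2866. Among the 52 genes, the log2 fold change in p53-/- and gene length had a Spearman correlation of -0.72 (n = 52 genes, which share the same libraries), beside -0.13 over all 12625 genes. Of the 16 genes of 4000 bases or more, 11 were called and the median log2 fold change was -1.86 (3.63-fold lower), while over all 3746 genes of that length it was -0.12. For the 23 genes of 2000 to 4000 bases it was -0.71 with 1 called, and for the 13 genes under 2000 bases -0.57 with none called, beside 0.02 and 0.06 over all genes. The share of all genes called in these classes, in either direction, was 4.35% at 4000 bases or more, 3.99% at 2000 to 4000 bases and 1.99% under 2000 bases. The 1 of 23, which was called lower, is near the share of its class, which also counts genes called higher. Every length class of the 52 genes was therefore below the class of all genes, with the largest gap among the long genes. The length pattern was weaker in 55 further mitotic genes outside the list, described below, with a Spearman correlation of -0.31. Of those, 2 of 12 genes of 4000 bases or more, 3 of 29 of 2000 to 4000 bases and 2 of 14 under 2000 bases were called. Their median log2 fold changes were -0.94, -0.69 and -0.54 in that order. Within a complex the lengths also differed: Cenpf (11122 bases) and Cenpe (7813 bases) against Spc24 (1349 bases) and Cenpa (1581 bases) in the kinetochore. Ncapd2 (4514 bases) and Ect2 (4117 bases) were long and not called, and Smc4 (4082 bases) was called with a log2 fold change of -2.44.

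The libraries themselves differed in how long genes stood against short ones. Over all genes, the mean log2 CPM of genes of 4000 bases or more minus that of genes under 2000 bases was -0.84 in p53R248W/+ replicate 1, -0.63 in p53-/- replicate 2, and between -0.35 and 0.13 in the other 7 libraries. Over the 52 genes the same difference was -1.73, -1.66 and -1.19 in p53-/-, -1.21 in p53R248W/+ replicate 1 and -0.75 to 0.05 in the other p53+/+ and p53R248W/+ libraries. With the trend on length removed in each library, 21 genes were called in p53-/- against p53+/+, and with the trends on length and GC content removed 27, all lower, and the median log2 fold change was -0.79 and -0.84. For p53R248W/+ against p53+/+ the Spearman correlation with length was -0.35 over the 52 genes and -0.22 over all genes. These corrections were chosen after the data were seen, and the part of RNA quality or of library preparation in the length pattern was not tested.

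**Figure D3:**
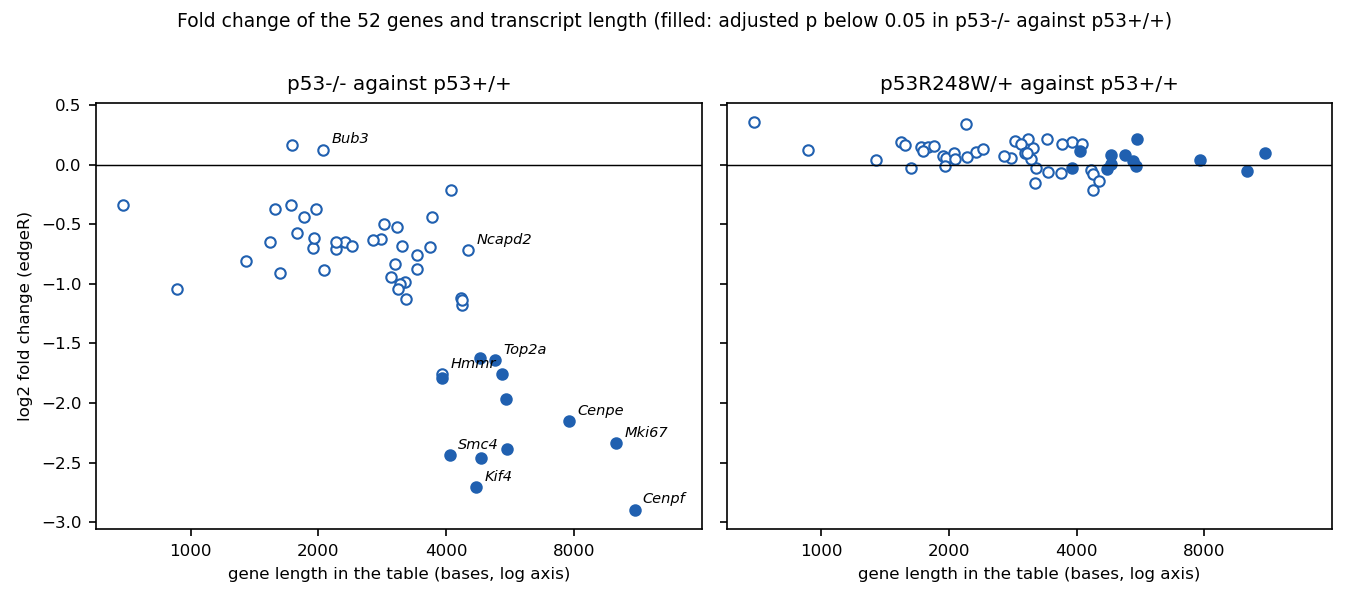
Log2 fold change (y axis) of the 52 genes against gene length in the deposited table (x axis, log scale) in p53-/- and p53R248W/+ against p53+/+ LSKs, with filled points for the 12 genes called in p53-/-. On the left the 12 filled points are between 3905 and 11122 bases, and on the right all points lie within -0.21 and 0.36.

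Per kilobase of gene, in p53+/+ LSKs, Bub3 (138 ± 5.03 CPM per kb, SD, n = 3), Cks2 (122 ± 19.5) and Ube2c (116 ± 11.6) had the highest levels of the 52 genes, and Cenpf (3.51 ± 0.975), Cenpe (4.52 ± 1.21) and Anln (5.41 ± 0.708) the lowest. Bub3 and Cks2, and likewise Cks2 and Ube2c, differed by less than the SD of Cks2. In p53-/- LSKs Cenpf was at 0.472 ± 0.147 CPM per kb, from 70 to 146 counts per library, and Ube2c at 56.3 ± 35.9.

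Genes outside the list that also act in mitosis were mostly below 0 as well. Of 55 further mitotic genes, 7 were called lower and none higher in p53-/- against p53+/+, 52 were below 0 and the median was -0.69, where 2.25% of all genes were called lower. The smallest p-values were those of Dlgap5, a spindle protein (22.6, 32.0 and 25.7 CPM in p53+/+ and 8.38, 5.65 and 6.43 in p53-/-, log2 fold change -1.97), Casc5, the kinetochore scaffold also named Knl1 (-2.34), Cenph (-1.24), Sgol2a, which protects centromeric cohesion (-1.86), and Cdca3 (-1.08). Against p53-/-, 8 of them were called in p53R248W/+, all higher (2.34% of all genes were), and none was called between p53R248W/+ and p53+/+. The 15 genes of the anaphase-promoting complex, the ubiquitin ligase that triggers anaphase, had a median of 0.07 in p53-/- and none was called. Between p53R248W/+ and p53-/- 1 was, Anapc4, which was lower in p53R248W/+ (-0.71), where 1.1% of all genes were, and was named after its value was seen.

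Of 12 components of MuvB, MYB and DREAM, 1 was called lower in p53-/-, where 2.25% of all genes were. This was Mybl2, which encodes B-MYB and is itself expressed in cycling cells. It was at 43.1, 64.3 and 72.8 CPM in p53+/+, 41.5, 63.1 and 47.9 in p53R248W/+ and 36.2, 28.6 and 24.6 in p53-/- (-1.01 ± 0.24, SE, adjusted p = 0.0455), and the median of the list was 0.06. None of the 3 NF-Y subunits, which bind CCAAT boxes, was called (median -0.00). Of 6 genes for CDK inhibitors and p53, 1 was called lower, Cdkn1a, beside the same 2.25%. Among 35 genes of G1/S and DNA replication, 33 were below 0 with a median of -0.28, and 1 was called lower, near the 2.25% of all genes. This was Clspn (15.2, 20.2 and 25.9 CPM in p53+/+ and 5.06, 6.42 and 6.48 in p53-/-, log2 fold change -1.77), followed by Pola1 (-0.91, adjusted p = 0.0604) and Chaf1a (-0.95, adjusted p = 0.0784). The replication genes were thus nearer to 0 than the mitotic genes, a difference between lists that was not tested. Between p53R248W/+ and p53-/-, 2 replication genes and Cdkn1a were called, all higher in p53R248W/+, where 2.34% of all genes were. None of the MuvB and NF-Y lists was called. No gene of these lists was called in p53R248W/+ against p53+/+.

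In p53-/- against p53+/+, 1 marker of each of the stem cell and progenitor compartments passed the threshold. Of 14 long-term HSC genes, 10 were above 0 and 1 was called higher in p53-/- against p53+/+, where 1.25% of all genes were, namely Hlf (205, 192 and 118 CPM in p53+/+ and 351, 362 and 418 in p53-/-, adjusted p = 0.0242), and their median was 0.72. For 8 of the 14 every p53-/- library lay above every p53+/+ library and for 1 below, where 1944 and 2021 of all 12625 genes did so. At an unadjusted p below 0.05 in edgeR, 8 were higher and none was lower. The mean log2 CPM of the list was 5.27 to 5.29 in p53-/-, 4.38 to 5.09 in p53+/+ and 4.72 to 4.81 in p53R248W/+, and Slamf1, which defines the HSC gate, was at 1.90 to 6.29 CPM in p53-/- and 5.86 to 7.61 in p53+/+. Of 8 multipotent progenitor genes, 1 was called lower, where 2.25% of all genes were, namely Dntt (2063, 1063 and 1542 CPM in p53+/+ and 785, 691 and 885 in p53-/-, adjusted p = 0.0384), with a list median of -0.58. For 4 of these 8 genes every p53-/- library lay below every p53+/+ library and for none above, where 16% of all genes lay below. Their mean log2 CPM was 7.76 to 8.12 in p53-/-, 8.37 to 8.62 in p53+/+ and 8.49 to 8.64 in p53R248W/+. In p53R248W/+ against p53-/-, 4 long-term HSC genes were called lower, where 1.1% of all genes were, and 2 progenitor genes higher, where 2.34% were. Their part in the lower mitotic levels was not tested.

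**Figure D4:**
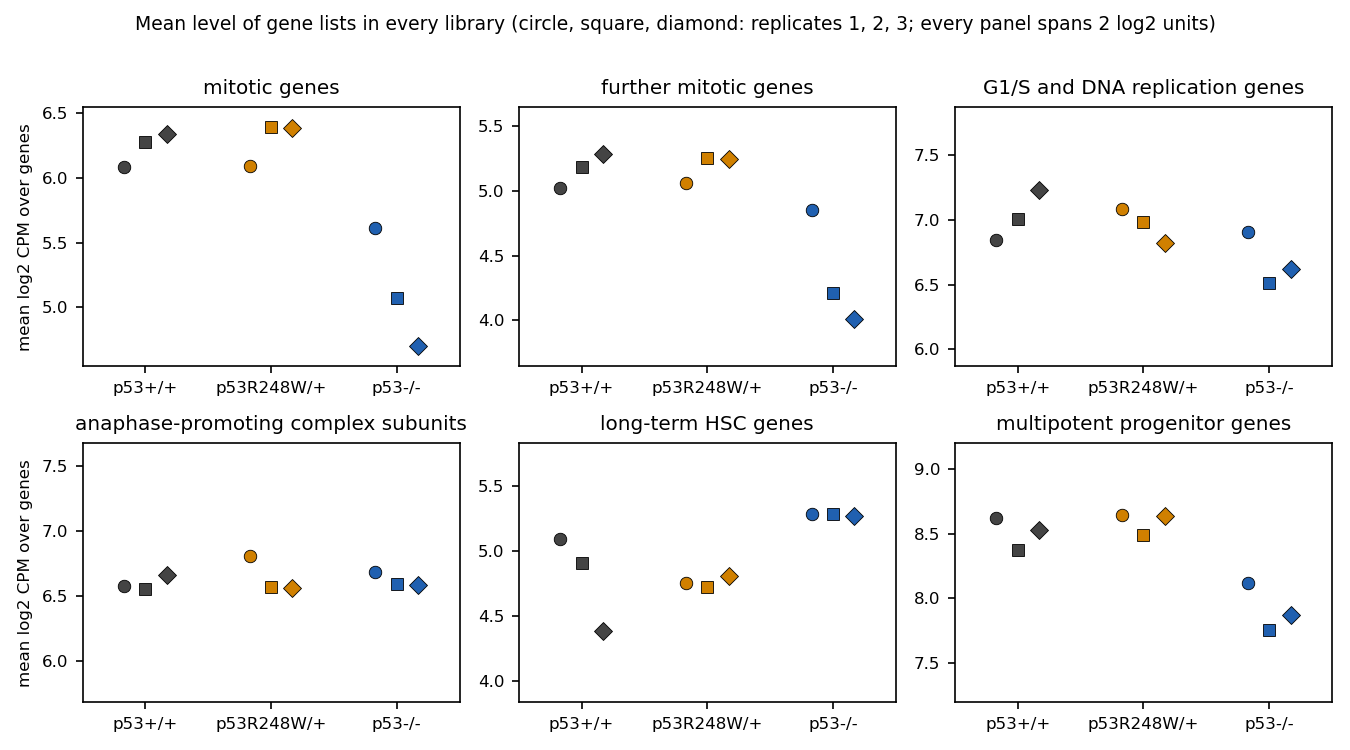
Mean log2 CPM (y axis, each panel spanning 2 units) over the genes of 6 lists in each of the 9 libraries (x axis, genotype). The 52 mitotic genes and the further mitotic genes are lowest in the 3 p53-/- libraries, the anaphase-promoting complex is level, the long-term HSC genes are highest and the multipotent progenitor genes lowest in p53-/-.

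No marker of erythroid cells (5 genes), granulocytes and monocytes (9), B cells (5), T and NK cells (4) or megakaryocytes (5) was called in p53-/- or in p53R248W/+ against p53+/+, and neither gate gene was. In p53-/- against p53+/+, 4, 9, 3, 3 and 4 of these markers were below 0, with medians of -0.61, -0.54, -1.45, -0.15 and -0.51. At an unadjusted p below 0.05 in edgeR, 1, 4, 2, 1 and 3 were lower in the same order, and 1 T and NK cell gene was higher. Of all 12625 genes, 1574 were lower and 1376 higher by that measure. In p53R248W/+ against p53-/- 2 granulocyte and monocyte genes and 1 T and NK cell gene were called higher, where 2.34% of all genes were. The mean log2 CPM of the granulocyte and monocyte list was 6.71 to 8.64 in p53+/+, 6.87 to 8.76 in p53R248W/+ and 6.01 to 6.84 in p53-/-. For the erythroid list it was 2.72 to 3.21, 2.22 to 3.38 and 2.04 to 2.97 in the same order, and for B cells 1.39 to 2.93, 2.52 to 3.08 and 0.73 to 1.56. For T and NK cells it was 2.31 to 3.19, 3.16 to 3.68 and 2.41 to 3.24, and for megakaryocytes 3.42 to 4.64, 3.41 to 3.52 and 3.26 to 3.69. The part of these cells in the mitotic levels was not tested.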

How the data were processed

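LSK RNA-seq libraries were analysed from the table the authors deposited, which gives for each gene its raw read counts (whole numbers, not normalized) and its length in bases. The log2 fold changes and p-values that the authors deposited in the same table are their own comparisons and were not used. The submitters' processing notes name STAR 2.5.2b, featureCounts of Subread 1.5.0, edgeR and mm10, and also BWA and SICER, without saying which step used which. The labels name a SMART-Seq v4 kit, while the study's methods describe oligo(dT) selection and random hexamers. The lowest gene total was 37 counts, so genes with fewer counts had been left out before deposit, and 0 columns of other samples were found. The H3K27me3 ChIP-seq samples are not analysed here.

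Counts were fitted with edgeR 4.0.16 (R 4.3.3) in 1 model of all 9 libraries: filterByExpr by genotype, TMM factors, the quasi-likelihood test, and Benjamini-Hochberg adjustment over 12625 genes with a threshold of 0.05. The TMM factors were 0.935 to 1.04. CPM used TMM-scaled library sizes, and log2 CPM a prior count of 2. Called means past that threshold. With 3 libraries a genotype and a biological coefficient of variation of 0.281, small differences were not detectable, and errors cover the spread between libraries. The same results were computed with DESeq2 1.42.0, with limma-voom (limma 3.58.1), with 2 other normalizations, without a filter, with at least 10 counts required in all libraries, with replicate number as blocking factor, with only the 6 libraries compared, with a Y-linked covariate, without each library in turn, and, chosen after the data were seen, removal of trends on length and on length and GC content. The fits were tested on simulated data. Promoters and gene positions (GRCm38.p6, the assembly of mm10) are from RefSeq by NCBI gene number, and 244 genes of the table had no number. Figures were drawn with matplotlib 3.10.9 in Python 3.11.15.

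The members and the gene lists were chosen with earlier results of these data known. Values in every library are given, by rule, for up to 4 called genes a role group in p53-/- against p53+/+ by smallest p (in groups with fewer than 2 called genes, the 2 smallest p), for genes against the sign of the median, and for the 3 smallest p in each of the other comparisons. Outside the members, the rule took Trp53, Cdkn1a, called MuvB genes, 5 further mitotic genes and 3 replication genes. Other genes given with values were chosen after those were seen.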

Additional observations from a re-analysis of the deposited data

How the results depend on the processing

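Under DESeq2, 29, 0 and 34 of the 52 genes were called in p53-/- against p53+/+, p53R248W/+ against p53+/+ and p53R248W/+ against p53-/-, beside 12, 0 and 15 in edgeR, and 1552, 6 and 1325 of all genes, beside 442, 1 and 434. With only the 6 libraries of each pair, 19 and 12 of the 52 genes were called in the comparisons with p53-/-, and 894 and 208 of all genes. With the Y-linked covariate, 8 of the 52 genes and 163 of all genes were called in p53R248W/+ against p53-/-. With the length trend removed, 21 of the 52 genes were called in each comparison with p53-/-, with 1192, 2 and 883 of all genes in the 3 comparisons, and with length and GC content removed 27 in each, with 1341, 0 and 1087 of all genes. The strict filter left 0 genes called in p53R248W/+ against p53+/+. Leaving out 1 library at a time gave 7 to 22 of the 52 genes and 37 to 1485 of all genes in p53-/- against p53+/+, 8 to 30 and 77 to 1559 in p53R248W/+ against p53-/-, and 0 and 1 in p53R248W/+ against p53+/+, with medians over the 52 genes of -1.11 to -0.59, 0.69 to 1.15 and 0.01 to 0.13. Under the other 11 settings the medians were -0.90 to -0.79, 0.83 to 0.91 and 0.03 to 0.08. In p53R248W/+ against p53-/- the log2 fold changes of Bub3 and Pttg1, -0.03 and -0.05, became 0.16 and 0.18 with the Y-linked covariate, and ranged from -0.23 to 0.060 and -0.18 to 0.11 with a library left out. Of 1078 single-gene values under the alternatives, 936 kept their direction and their side of the threshold, 73 lost a call, 61 gained one and 8 changed sign without a call. The causes of these differences were not tested.

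The replicate numbers did not meet the condition for pairing the libraries, that every pair be correlated above 0.1: 3 of 9 pairs with the same number had deviations correlated above 0.1 (-0.11 to 0.54). Between p53+/+ and p53R248W/+ the pairs of number 1 and number 2 stood at 0.36 and 0.54 and that of number 3 at 0.039, and no pair with p53-/- passed 0.1 except number 3 with p53R248W/+ (0.13). Over all pairs, a library correlated best with its own number in 8 of 18 cases. With the number as a block, 14, 0 and 18 of the 52 genes and 882, 2 and 672 of all genes were called.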
